A study of Mus musculus with 2 samples.

Results

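Interferon-stimulated genes, the genes that cells switch on after an interferon binds its receptor, were followed as 45 members chosen by gene symbol from the 31053 genes of the feature tables. They comprised 27 type I-like members (the Ifit and Oas families, Isg15, Rsad2, Irf7 and others), 14 gamma-like members (the guanylate-binding proteins Gbp2 to Gbp5 and Gbp7, the immunity-related GTPases Irgm1, Igtp, Ifi47 and Iigp1, and Irf1, Cxcl9, Tap1, Psmb8 and Psmb9), 3 Ifitm genes and the chemokine gene Cxcl10, which answers to both kinds of interferon. The type I-like and gamma-like groups are working names, since many of these genes respond to either interferon.

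Transcripts were counted as unique molecular identifiers (UMIs) in single cells from the vitreous of C57BL/6 mice. The eyes of both groups had received zymosan, a preparation of yeast cell walls. Cells from the vitreous and from a rinse of the retina were enriched with magnetic beads against Ly6G, a neutrophil surface protein, and captured with the 10x 3′ kit. One library came from mice treated with NRS and 1 from mice treated with aCXCR2, an antiserum to the neutrophil chemokine receptor CXCR2. The number, age and sex of the mice, the doses and the time after injection are not given in the sources used here. Each group is a single library, so no difference has a replicate check or a test. Every ratio is aCXCR2 over NRS, and every 95% interval, in brackets, covers counting error only.

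Type I interferons signal through Ifnar1 and Ifnar2 to a complex that holds STAT2 and IRF9 and binds a DNA element built from repeats of GAAA, the interferon-stimulated response element. Interferon gamma signals through Ifngr1 and Ifngr2 to factors that bind another element, the gamma-activated site, and induces IRF1, which in turn binds response elements like those of the type I pathway. The products block viral translation (Ifit, Oas), attack the membranes of vacuoles that hold microbes (Gbp, Irgm1) and widen peptide supply for MHC class I (Tap1, Psmb8, Psmb9). They are induced in most cell types, and in the inflamed eye both immune cells and retinal neurons can carry them.

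The promoter stretches below are shown because they carry the DNA elements through which the 2 groups of members are known to be induced. They were read from RefSeq (GRCm38.p6) in windows of 300 bases, 250 of them before the start site, in the direction of the gene. Windows were found for 38 of the 45 members. Capitals mark matches to the core of the interferon-stimulated response element, searched as GAAA, any pair of bases and GAAA again, on either strand (on the other strand it reads TTTC, any pair of bases, TTTC), with overlapping matches joined. In the line of Irf1 and the last line of Gbp5, capitals mark TTCNNNGAA, the core of the gamma-activated site.
Ifit1: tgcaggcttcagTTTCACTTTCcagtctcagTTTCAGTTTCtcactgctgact
Ifit3: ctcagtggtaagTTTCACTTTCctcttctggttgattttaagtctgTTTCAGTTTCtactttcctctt
Isg15: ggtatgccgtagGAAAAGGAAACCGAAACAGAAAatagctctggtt
Rsad2: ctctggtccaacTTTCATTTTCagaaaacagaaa
Cxcl10: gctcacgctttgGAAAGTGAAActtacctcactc
Gbp2: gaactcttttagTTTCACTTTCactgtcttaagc
Irgm1: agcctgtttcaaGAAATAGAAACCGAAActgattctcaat
Gbp5: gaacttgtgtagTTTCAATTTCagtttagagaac
Gbp5 gamma site: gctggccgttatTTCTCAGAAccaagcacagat
Irf1: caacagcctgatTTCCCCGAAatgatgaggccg

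The Ifit1 stretch lies at chr19:34640773-34640825, plus strand, that of Ifit3 at chr19:34583361-34583428, plus strand, and that of Isg15 at chr4:156200863-156200908, minus strand. The Rsad2 stretch lies at chr12:26456551-26456584, minus strand, and the Cxcl10 stretch at chr5:92349081-92349114, minus strand. Those of the gamma-like members lie at chr3:142620592-142620625, plus strand (Gbp2), chr11:48871423-48871462, minus strand (Irgm1), chr3:142496757-142496790, plus strand and chr3:142496870-142496902, plus strand (Gbp5), and chr11:53769912-53769944, plus strand (Irf1). The Ifit3b window, at chr19:34607757-34607824, plus strand, holds the same 68 bases as that of Ifit3. All lie upstream of the RefSeq start site that sets the window. By the gene spans of GENCODE M21, the Irgm1 stretch and both Gbp5 stretches fall inside their gene, and the Gbp2 stretch runs across its start. A match to the response element core stood in 11 of the 22 type I-like windows and 6 of the 12 gamma-like windows (50% each), beside 3.99% of 27025 promoter windows of the same length. A match to TTCNNNGAA stood in 4 of the 22 type I-like windows (18.2%) and 5 of the 12 gamma-like windows (41.7%), beside 9.55% of all windows. The response element core was equally frequent in the 2 groups. A match is a description of these letters and not evidence of binding in these cells.

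After a filter on UMIs, genes and mitochondrial share, 5655 of 7314 barcodes were kept in NRS and 4826 of 5551 in aCXCR2, with medians of 4759 and 10383.5 UMIs per cell. Of the kept cells, 53 shared a barcode sequence across the libraries. Clusters were named from marker genes, with the interferon genes left out of the clustering. The cells did not match their Ly6G label throughout. Neutrophil-like cells were 46.3% of kept cells in NRS and 53.0% in aCXCR2, macrophage-like cells 7.36% and 16.1%, and photoreceptor-like cells, which carry rod genes such as Sag and Gngt1, 15.7% and 5.80%. Clusters that matched no class or several held 26.2% and 24.4% of kept cells. Different clusters filled the neutrophil-like class in each library: clusters 0 and 6 held 1230 and 676 of its 2617 NRS cells, and clusters 2, 9 and 8 held 871, 555 and 534 of its 2556 aCXCR2 cells. Levels are given in CPM, the UMIs of a gene per 1000000 UMIs of the class in that library, and in each pair of values the NRS level comes first.

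In neutrophil-like cells the gamma-like members stood higher in aCXCR2 as a group, and the type I-like members differed less and in both directions. The gamma-like sum was 768 CPM (NRS) and 1612 CPM (aCXCR2), a log2 ratio of 1.07 [1.04 to 1.10], and the type I-like sum was 997 CPM (NRS) and 1449.7 CPM (aCXCR2), a log2 ratio of 0.54 [0.51 to 0.57]. Members were compared where 1 of the libraries reached 10 CPM, which 36 did: 15 of them stood 2-fold or more higher in aCXCR2 and 1 stood 2-fold or more lower. Over all 7193 genes at that level the shares were 1.95% higher and 20.5% lower (2.46% and 12.5% at a minimum of 50 CPM), and the median log2 ratio was -0.57. The 15 comprised 9 of 11 gamma-like members measured, 2 of 21 type I-like members, all 3 Ifitm genes and Cxcl10. The median log2 ratio was 1.18 for the gamma-like members and 0.48 for the type I-like members. With TMM scaling, which moves all neutrophil-like log2 ratios by 0.67, 28 members were at least 2-fold higher and 0 lower, beside 8.20% and 3.0% of 6927 genes. With clusters 0, 2, 3 and 6 weighted equally in both libraries, 3 members were 2-fold higher and 2 lower. The share over all genes was not computed for this weighting. The log2 ratios of the sums were then 0.25 (gamma-like) and 0.19 (type I-like).

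**Figure D1:**
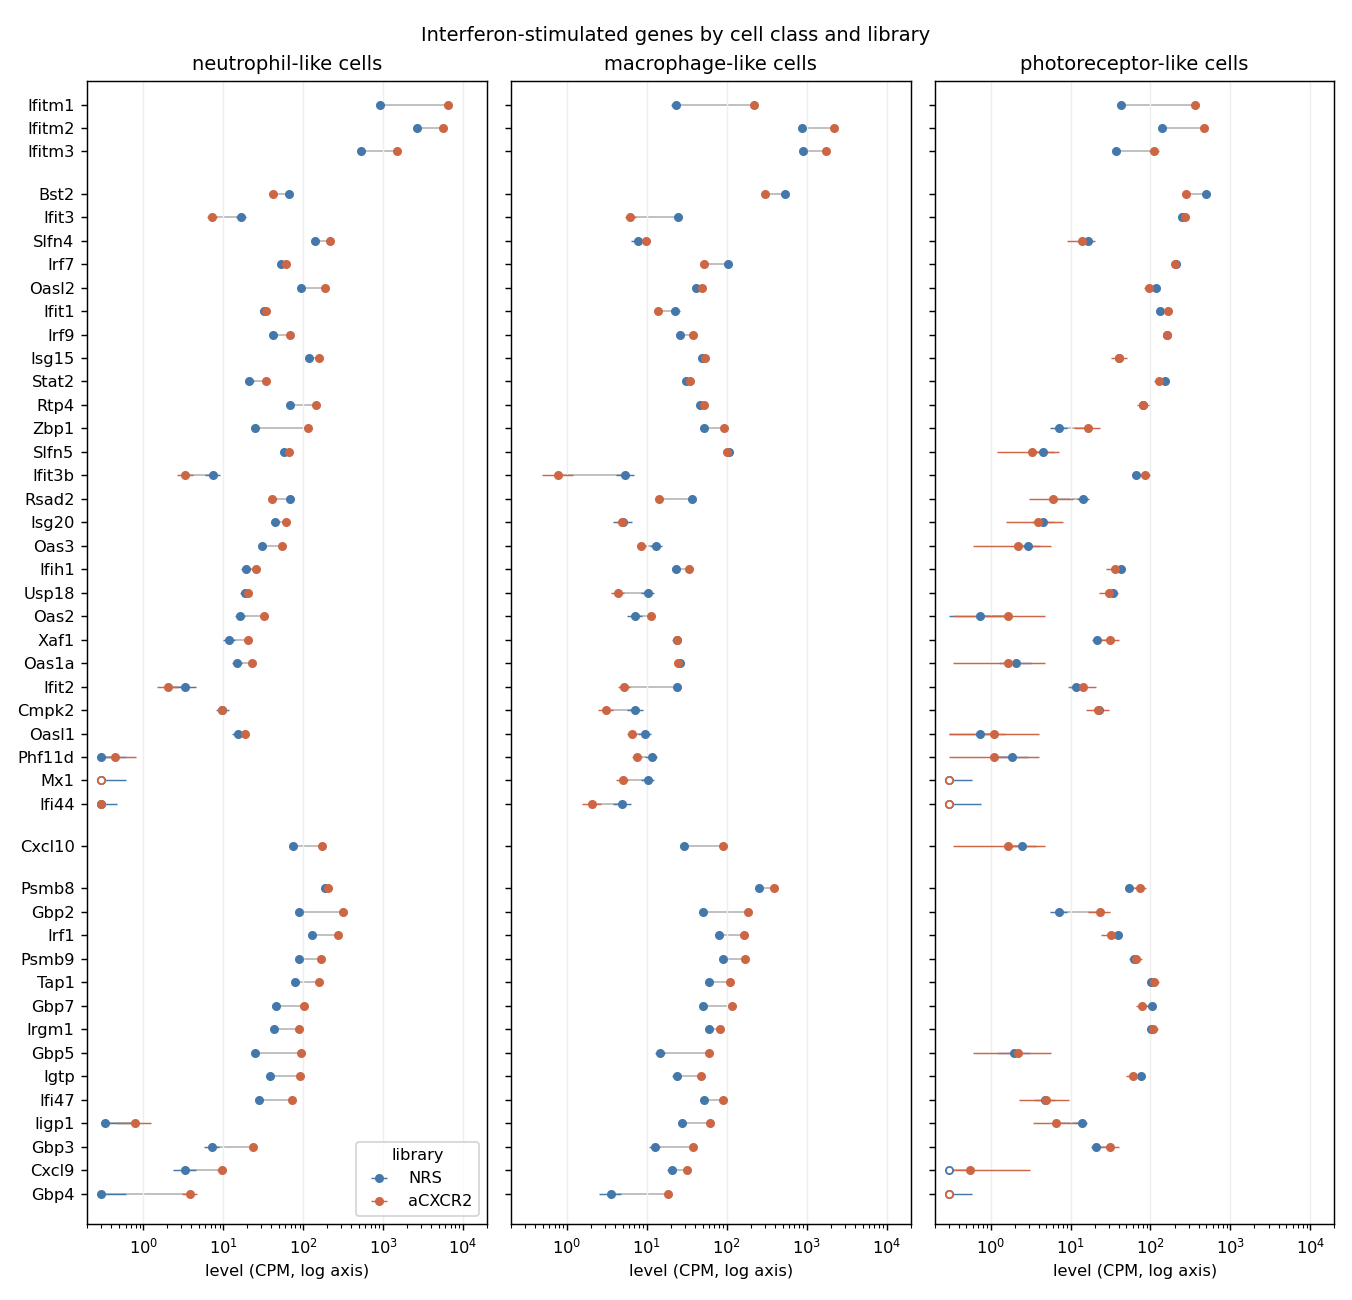
Level of each of the 45 members in neutrophil-like, macrophage-like and photoreceptor-like cells, in CPM on a log axis, with 1 point per library and bars for the 95% Poisson interval; points under 0.3 CPM are drawn at 0.3 and open points had 0 UMIs. Gbp2, Gbp5 and the Ifitm genes lie further right in aCXCR2 in neutrophil-like and macrophage-like cells, while Ifit3 lies further left in both and is highest in photoreceptor-like cells, at 245 and 268 CPM.

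Among gamma-like members in neutrophil-like cells, the guanylate-binding proteins had log2 ratios from 1.18 (Gbp7) to 4.53 (Gbp4). Gbp2, which coats and opens pathogen vacuoles, was 89.5 CPM (NRS) and 316 CPM (aCXCR2), a log2 ratio of 1.82 [1.73 to 1.92]. Gbp5, linked to inflammasome assembly, was 24.9 CPM (NRS) and 94.5 CPM (aCXCR2), a log2 ratio of 1.92 [1.75 to 2.10]. Gbp3 and Gbp7, of the same family, were 7.24 versus 23.9 CPM and 45.4 versus 103 CPM. Gbp4 had 2 UMIs in NRS and 87 in aCXCR2 (log2 ratio 4.53, interval 2.64 to 7.60). The immunity-related GTPases Ifi47, Igtp and Irgm1 had log2 ratios of 1.34, 1.26 and 1.06, with levels of 28.3 versus 71.5 CPM, 37.95 versus 90.9 CPM and 43.1 versus 89.6 CPM. All of these stood higher in aCXCR2. Irf1, the transcription factor that relays the gamma signal, was 131 CPM (NRS) and 276 CPM (aCXCR2), a log2 ratio of 1.08 [1.002 to 1.16]. The antigen-processing genes differed less evenly. The peptide transporter Tap1 was 77.9 versus 158 CPM, the immunoproteasome subunit Psmb9 was 89.8 versus 167 CPM, and its partner Psmb8 was 189 versus 207 CPM (log2 ratio 0.13).

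Type I-like members in neutrophil-like cells ranged from a log2 ratio of 2.21 to -1.20. Zbp1, a sensor of Z-form nucleic acid that triggers cell death, was 24.97 CPM (NRS) and 115 CPM (aCXCR2), a log2 ratio of 2.21 [2.04 to 2.39]. Rtp4, a receptor transporter protein with antiviral activity, was 68.9 CPM (NRS) and 145 CPM (aCXCR2), a log2 ratio of 1.08 [0.97 to 1.19]. The synthetase Oas2 and the synthetase-like Oasl2 lay just under 2-fold, both with a log2 ratio of 0.99. Their levels were 16.3 versus 32.4 CPM and 95.2 versus 189 CPM. The other synthetases Oas3 and Oas1a were 30.5 versus 53.9 CPM and 14.8 versus 22.8 CPM. All 4 stood higher in aCXCR2. The transcription factors Irf9 and Stat2, 2 parts of the type I complex, were 42.5 versus 67.5 CPM and 21.3 versus 34.02 CPM, and Irf7, which amplifies type I interferon production, was 52.7 versus 60.4 CPM. Slfn4 and Slfn5, Schlafen genes of myeloid cells, were 141 versus 218 CPM and 57.3 versus 66.4 CPM.

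The ubiquitin-like protein Isg15 was 119 versus 158 CPM, the exonuclease Isg20 44.2 versus 61.6 CPM, and the RNA sensor Ifih1 19.3 versus 25.5 CPM. The apoptosis adaptor Xaf1 was 11.9 versus 20.1 CPM, the Isg15 protease Usp18 18.6 versus 20.1 CPM and the RNA-binding protein Ifit1 32.2 versus 34.7 CPM. For Ifit1 and Usp18 the counting interval of the ratio held 0. Lower in aCXCR2 were the tethering factor Bst2 at 66.2 versus 41.6 CPM, the radical enzyme Rsad2 (viperin) at 67.8 versus 40.6 CPM, and Ifit3 at 16.7 CPM (NRS) and 7.27 CPM (aCXCR2), a log2 ratio of -1.20 [-1.51 to -0.90]. Their log2 ratios were -0.67 (Bst2) and -0.74 (Rsad2), and under TMM scaling Rsad2 came to -0.07 and Bst2 to within 0.01 of 0. Photoreceptor markers, which with Ifit3 were highest in photoreceptor-like cells, summed to 771 CPM in the neutrophil-like cells of NRS and 81.2 CPM in those of aCXCR2. Per 1000 Sag UMIs, Ifit3 had 64.2 UMIs in neutrophil-like and 20.1 in photoreceptor-like cells of NRS, and the part of rod RNA in the Ifit3 difference was not tested. The 11 members under 20 CPM in both libraries reached at most 18.9 CPM, and Mx1 and Ifi44 had 3 UMIs or fewer in both.

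The Ifitm genes encode small membrane proteins that restrict virus entry. In neutrophil-like cells Ifitm1 was 901 CPM (NRS) and 6513 CPM (aCXCR2), a log2 ratio of 2.85 [2.83 to 2.88], Ifitm2 was 2642 versus 5637 CPM and Ifitm3 was 535 versus 1495 CPM. All 3 were at least 2-fold higher in aCXCR2. Ifitm1 was among the 10 leading genes of clusters 2, 8 and 9, which are mostly aCXCR2 cells, and it was also higher in aCXCR2 within clusters 0, 2, 3 and 6, with log2 ratios of 1.40, 2.04, 2.03 and 1.77. Cxcl10, a chemokine for activated T cells, was 74.3 CPM (NRS) and 169.7 CPM (aCXCR2), a log2 ratio of 1.19 [1.09 to 1.30], over the class. In cluster 6 it was 142 versus 52.8 CPM (log2 ratio -1.43). Its ratio was -0.79 with the 4 clusters weighted equally.

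Within neutrophil-like clusters that held at least 100 cells in both libraries, the sums lay closer together than over the class, least so the gamma-like sum of cluster 2. In cluster 6, marked by Cxcr2, Il1r2 and Csf3r, the type I-like sum was 2284 CPM (NRS) and 2193 CPM (aCXCR2), a log2 ratio of -0.06 [-0.14 to 0.03]. The gamma-like sum there was 1509 CPM (NRS) and 1648 CPM (aCXCR2), a log2 ratio of 0.13 [0.03 to 0.23]. In cluster 3, led by Ccl3 and Cxcl2, the type I-like sum was 422 versus 568 CPM (log2 ratio 0.43) and the gamma-like sum 306 versus 265 CPM (log2 ratio -0.20). In cluster 0, led by Wfdc21 and Stap1, the sums were 604 versus 771 CPM and 607 versus 660.1 CPM, with log2 ratios of 0.35 and 0.12. Cluster 0 had the lowest neutrophil score of the class, 0.302, where 0.25 was needed for a name. As in cluster 3, no neutrophil marker was among its 10 leading genes. In cluster 2, led by S100a9 and S100a8, the gamma-like sum was 891 CPM (NRS) and 1709 CPM (aCXCR2), a log2 ratio of 0.94 [0.82 to 1.06], while its type I-like sum was 1264 versus 1303 CPM. There 7 of 12 gamma-like members were at least 2-fold higher and 1, Cxcl9, was lower, beside 2.73% and 6.42% of 7133 genes. Gbp2 in that cluster was 83.5 versus 281 CPM and Igtp was 36.3 versus 109 CPM. Zbp1 was higher in aCXCR2 in each of clusters 0, 2, 3 and 6, with log2 ratios of 1.43, 1.64, 1.84 and 1.30. Cluster 8, with 34 NRS cells, had sums of 556 versus 1437 CPM (type I-like) and 164 versus 1491 CPM (gamma-like).

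Levels were high in neutrophil-like clusters marked by Cxcr2. Cluster 6 had the highest type I-like sum among neutrophil-like clusters of at least 100 NRS cells, at 2284 CPM. Cluster 9, led by S100a9, Retnlg and S100a8 and also marked by Cxcr2, had the highest in aCXCR2, at 2253 CPM for the type I-like and 2539.8 CPM for the gamma-like sum. Cluster 9 held 13 NRS cells, too few for a comparison between the libraries.

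**Figure D2:**
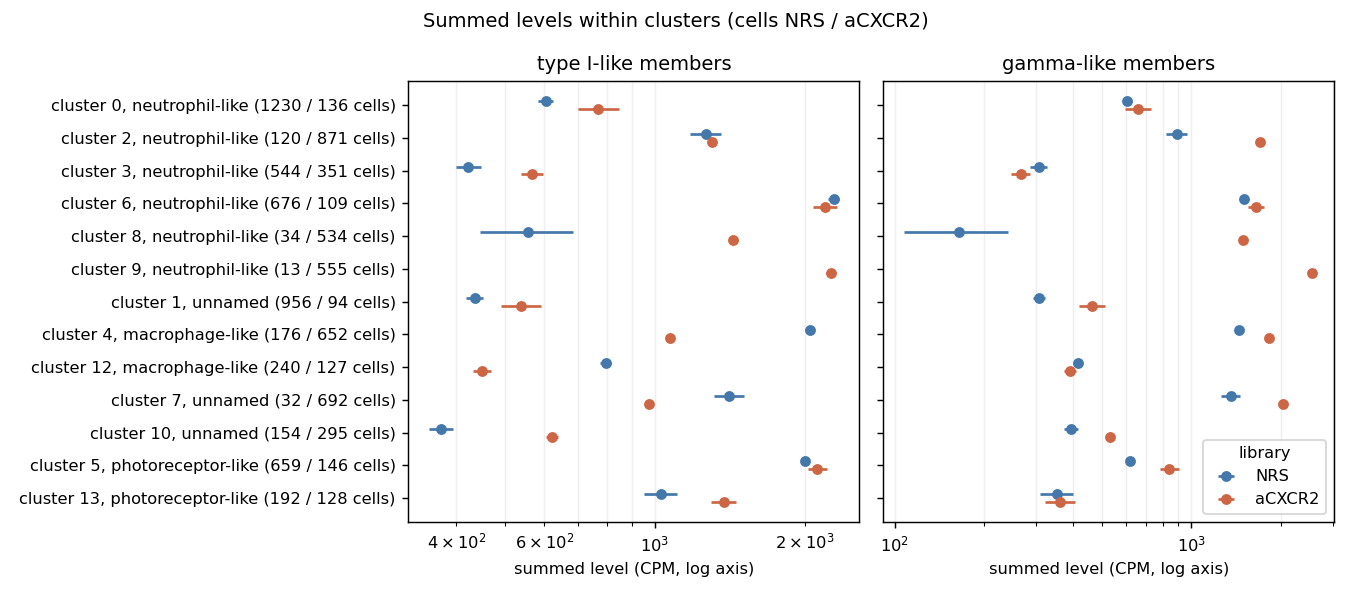
Summed level of the type I-like and the gamma-like members by cluster, in CPM on a log axis, with 1 point per library for clusters with at least 20 cells in that library and bars for the 95% Poisson interval. The type I-like sum is highest in clusters 6 and 9 among neutrophil-like clusters, and cluster 4 lies at 2046 versus 1071 CPM (NRS versus aCXCR2).

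Counted per cell over the whole class, type I-like transcripts were spread over more neutrophil-like cells in aCXCR2 and concentrated in fewer, higher cells in NRS. Each cell was thinned to 1000 UMIs, which left out 192 NRS and 45 aCXCR2 neutrophil-like cells. At least 3 type I-like UMIs were found in 10.7% (9.52 to 12.02%) of 2425 NRS cells and 19.6% (18.1 to 21.2%) of 2511 aCXCR2 cells. At least 10 were found in 2.14% (1.61 to 2.80%) and 1.31% (0.906 to 1.84%). The 10% of cells with the most type I-like UMIs held 66.6% of them in NRS and 46.0% in aCXCR2, and the ratio of variance to mean over cells was 10.5 and 4.0. The highest cell had 71 UMIs of 1000 in NRS and 46 in aCXCR2. For gamma-like UMIs the shares with at least 3 were 7.42% (6.41 to 8.54%) and 22.4% (20.8 to 24.1%). At least 3 type I-like UMIs were found in 23.4% (20.5 to 26.5%) of photoreceptor-like cells in NRS and in 16.3% (11.7 to 21.8%) in aCXCR2, at median depths of 4108 and 4862.5 UMIs against 4341 and 7635 in neutrophil-like cells. Among lens-like cells of NRS the share was 5.34%. Within neutrophil-like clusters that held at least 100 cells in both libraries, the type I-like shares lay closer than over the class. They were 5.53% and 8.62% in cluster 0 and 14.3% and 18.2% in cluster 2. In cluster 3 they were 3.18% and 3.25%, and in cluster 6 24.8% and 30.4%. The ratio of variance to mean was lower in aCXCR2 in clusters 0, 2 and 6 but higher in cluster 3, at 4.81 and 6.57.

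**Figure D3:**
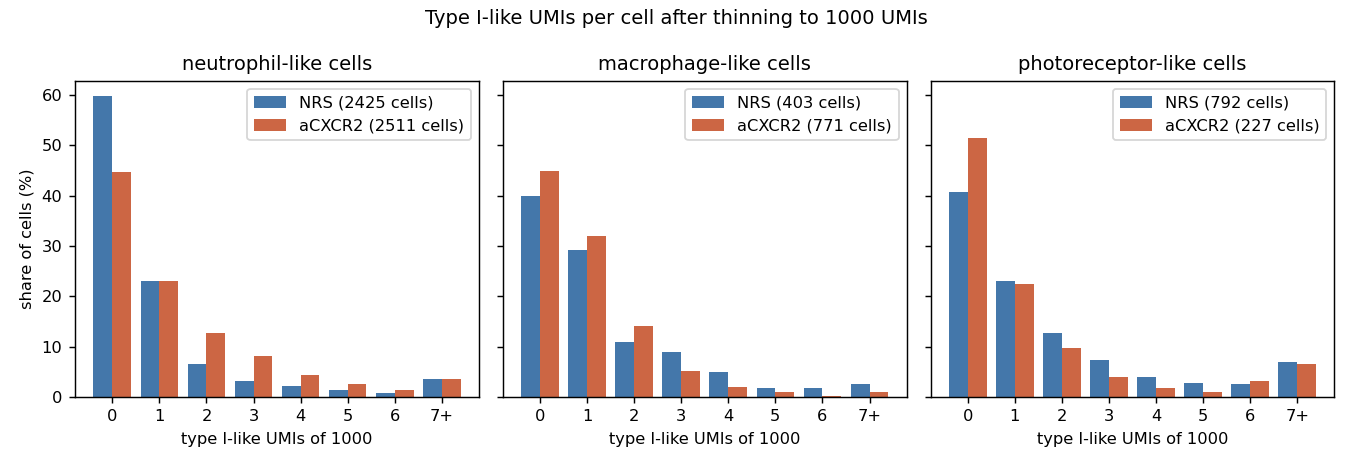
Share of cells, in percent, by the number of type I-like UMIs after thinning to 1000 UMIs, for neutrophil-like, macrophage-like and photoreceptor-like cells, with 1 bar per library. In neutrophil-like cells 10.7% of NRS and 19.6% of aCXCR2 cells had at least 3, and in photoreceptor-like cells 12.1% and 10.6% had at least 5.

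Zbp1, Gbp2 and Ifitm1 were each found in a larger share of thinned neutrophil-like cells in aCXCR2. Zbp1 was found in 1.98% of NRS and 9.08% of aCXCR2 cells, Gbp2 in 4.99% and 16.5%, and Ifitm1 in 36.5% and 82.8%. Without thinning these shares were 6.50% and 34.7% for Zbp1, 11.5% and 37.6% for Gbp2, and 59.1% and 93.5% for Ifitm1. Ifit3 was rare in thinned neutrophil-like cells, at 1.53% and 0.64%, and frequent in photoreceptor-like cells, at 14.9% and 11.9%. Gbp2 and Zbp1 were rarer in photoreceptor-like cells, at 0.76% and 0.88% for Gbp2 and 1.01% and 1.32% for Zbp1.

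In macrophage-like cells the type I-like sum was lower in aCXCR2 and the gamma-like sum higher, while single type I-like members lay on both sides. The type I-like sum was 1257 CPM (NRS) and 957 CPM (aCXCR2), a log2 ratio of -0.39 [-0.42 to -0.36], and the gamma-like sum was 794 CPM (NRS) and 1556 CPM (aCXCR2), a log2 ratio of 0.97 [0.94 to 1.003]. Bst2 alone made up 6134 of the 14526 type I-like UMIs of this class in NRS and 8002 of 25632 in aCXCR2. The sum without Bst2 was not computed. Of 21 type I-like members measured, 0 were at least 2-fold higher and 5 were lower. Of 14 gamma-like members, 7 were at least 2-fold higher and 0 were lower. Over 7534 genes, 3.32% were that much higher and 2.31% lower, and the median log2 ratio was 0.08. The median was -0.09 for the type I-like and 1.01 for the gamma-like members. Leaving out cluster 12, the cluster with the lowest macrophage score, gave -0.93 and 0.33 for the sums, and both clusters at equal weight gave -0.88 and 0.12. Cluster 12 held 240 of the 416 macrophage-like cells in NRS and 127 of 779 in aCXCR2.

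The 5 lower type I-like members were Ifit2, Ifit3, Rsad2, Usp18 and Mx1. Ifit2, an RNA-binding protein of the Ifit complex, was 23.98 CPM (NRS) and 5.23 CPM (aCXCR2), a log2 ratio of -2.20 [-2.50 to -1.90]. Its partner Ifit3 was 24.6 CPM (NRS) and 6.20 CPM (aCXCR2), a log2 ratio of -1.99 [-2.27 to -1.71]. Rsad2 was 36.5 CPM (NRS) and 14.2 CPM (aCXCR2), a log2 ratio of -1.36 [-1.57 to -1.16]. Usp18 and the dynamin-like GTPase Mx1 were near the 10 CPM minimum, at 10.3 versus 4.33 CPM and 10.2 versus 4.96 CPM. Short of 2-fold were Irf7 at 103 versus 52.5 CPM (log2 ratio -0.98) and Bst2 at 531 versus 299 CPM (log2 ratio -0.83). Ifit1 was 22.7 versus 13.7 CPM. Closer to level were other type I-like members: Isg15 was 48.8 versus 53.9 CPM, Oasl2 41.3 versus 48.9 CPM, Oas1a 26.1 versus 24.5 CPM, Rtp4 46.6 versus 52.04 CPM, Slfn5 106 versus 101 CPM, Xaf1 23.6 versus 23.6 CPM and Stat2 30.6 versus 34.9 CPM. Zbp1 was 51.5 CPM (NRS) and 92.7 CPM (aCXCR2), a log2 ratio of 0.85 [0.72 to 0.98], the highest ratio of this group among those named, but its log2 ratio was 0.05 within cluster 4 and -0.33 within cluster 12. Irf9 and Ifih1 were 25.7 versus 37.4 CPM and 23.03 versus 34.01 CPM.

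Photoreceptor markers in macrophage-like cells summed to 344 versus 33.3 CPM. Per 1000 Sag UMIs these cells had 217 Ifit3 UMIs in NRS and 725 in aCXCR2, against 20.1 and 34.9 in photoreceptor-like cells, and the part of rod RNA in the Ifit3 difference was not tested.

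The lower type I-like level held within both macrophage-like clusters. In cluster 4, marked by C1qa, C1qb and Pf4, the type I-like sum was 2046 CPM (NRS) and 1071 CPM (aCXCR2), a log2 ratio of -0.93 [-0.97 to -0.90], and 11 of 25 members were at least 2-fold lower and 0 higher, beside 3.01% and 2.52% of 7617 genes. Ifit3 there was 44.9 versus 7.32 CPM, Irf7 186 versus 62.4 CPM and Bst2 809.8 versus 307 CPM. In cluster 12, marked by Apoe, Spp1 and Trem2, the sum was 798 CPM (NRS) and 451 CPM (aCXCR2), a log2 ratio of -0.82 [-0.90 to -0.75], and 8 of 16 members were lower and 0 higher, beside 1.14% and 0.439% of 7295 genes. Rsad2 there was 25.9 versus 1.82 CPM and Irf7 54.9 versus 8.52 CPM. The unnamed cluster 7, led by Cd74, Ccr2 and H2-Ab1, had 32 NRS and 692 aCXCR2 cells. There 10 of 25 type I-like members were lower and 0 higher, beside 5.13% and 4.56% of 7715 genes. After thinning to 1000 UMIs, 1 of its 31 NRS cells alone had 15 type I-like UMIs. Shares of its cells with at least 1 were 48.4% in NRS and 55.6% in aCXCR2, and with at least 3 they were 9.68% and 9.25%. The count for cluster 7 thus rests on few NRS cells. In the unnamed cluster 10, led by Arg1 and Fn1, the type I-like sum was higher in aCXCR2, at 372 versus 623 CPM.

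The 7 higher gamma-like members of macrophage-like cells were Gbp2, Gbp3, Gbp4, Gbp5, Gbp7, Iigp1 and Irf1. Gbp2 was 50.1 CPM (NRS) and 183 CPM (aCXCR2), a log2 ratio of 1.87 [1.74 to 1.99]. Gbp5 was 14.6 CPM (NRS) and 59.1 CPM (aCXCR2), a log2 ratio of 2.01 [1.78 to 2.25]. Gbp4 was 3.55 versus 18.6 CPM. Gbp3 and Gbp7 were 12.5 versus 37.6 CPM and 49.9 versus 116 CPM. The GTPases Iigp1 and Igtp were 27.4 versus 61.9 CPM and 23.5 versus 46.96 CPM, Ifi47 was 52.4 versus 90.5 CPM, and Irgm1 was 59.9 versus 83.2 CPM (log2 ratio 0.47). Irf1 was 79.99 versus 162 CPM, Tap1 59.04 versus 108 CPM, Psmb9 90.4 versus 169 CPM and Psmb8 250.2 versus 389 CPM. Iigp1 had a log2 ratio of 1.17 over the class and -0.78 with clusters 4 and 12 weighted equally. Within clusters 4 and 12 the gamma-like sums were 1448 versus 1819 CPM and 413 versus 389 CPM, with log2 ratios of 0.33 and -0.09. Cxcl9, a chemokine that depends on interferon gamma, was 20.4 versus 31.4 CPM, and Cxcl10 was 29.4 CPM (NRS) and 89.5 CPM (aCXCR2), a log2 ratio of 1.60 [1.44 to 1.77]. Ifitm2 and Ifitm3 were 871 versus 2164 CPM and 903 versus 1724 CPM, and Ifitm1 was 22.9 versus 219 CPM. Dendritic cell markers summed to 422 versus 2956 CPM in these cells, with only 2 of 10 markers at 10 CPM or more in each library. The sum thus rests on few markers, and their part in the gamma-like difference was not tested. Neutrophil markers summed to 2137 versus 3576 CPM. Per 1000 S100a8 UMIs, Ifitm1 had 56.6 and 272 UMIs in macrophage-like cells, against 38.6 and 82.8 in neutrophil-like cells. The 12 members under 20 CPM in both libraries reached at most 18.6 CPM.

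Photoreceptor-like cells carried type I-like transcripts in both libraries, with sums closer than in either immune class. The type I-like sum was 1879 CPM (NRS) and 1689.9 CPM (aCXCR2), a log2 ratio of -0.15 [-0.21 to -0.10], and the gamma-like sum was 588 CPM (NRS) and 597 CPM (aCXCR2), a log2 ratio of 0.02 [-0.07 to 0.12]. Of 31 members measured there, 5 were at least 2-fold higher, namely Zbp1, Gbp2 and the 3 Ifitm genes, and 2 were lower, namely Rsad2 and Iigp1. Over 9296 genes the shares were 3.61% higher and 1.27% lower. Ifit3 was 245 CPM (NRS) and 268 CPM (aCXCR2), a log2 ratio of 0.13 [-0.01 to 0.27], Ifit3b was 65.5 versus 84.6 CPM and Ifit1 was 129.8 versus 167 CPM. Irf7, Irf9 and Stat2 were 209.8 versus 201 CPM, 161 versus 159 CPM and 153 versus 126 CPM. Bst2, which is also a marker of plasmacytoid dendritic cells, was 489 versus 281 CPM. It made up 4694 of the 18053 type I-like UMIs of this class in NRS and 508 of 3055 in aCXCR2, so the small difference of the sum leans on it. Several members found in neutrophil-like cells were low: Oasl1, Oas1a, Oas2 and Oas3 reached at most 2.91 CPM, Cxcl10 was 2.50 versus 1.66 CPM, and Gbp5 was 1.98 versus 2.21 CPM. Irgm1, Igtp, Gbp7 and Tap1 were found, at 102 versus 107 CPM, 76.9 versus 60.3 CPM, 104 versus 78 CPM and 101 versus 112 CPM. The 19 members under 20 CPM in both libraries reached at most 16.6 CPM. In NRS this class held 71.3% of all Ifit3 UMIs with 15.7% of the cells and 20.2% of all UMIs. In aCXCR2 it held 41.7% with 5.80% of the cells and 2.21% of all UMIs.

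Neutrophil markers in photoreceptor-like cells summed to 2681 CPM in NRS and 9902 CPM in aCXCR2, with 10 and 11 of 12 markers at 10 CPM or more. Zbp1, Gbp2 and the Ifitm genes were higher in aCXCR2 along with them, and the part of neutrophil RNA in those differences was not tested. Gbp2 rested on 68 UMIs in NRS and 42 in aCXCR2. Per 1000 S100a8 UMIs, Ifitm1 had 37.3 and 79.2 UMIs in photoreceptor-like cells and 38.6 and 82.8 in neutrophil-like cells. Ifit3 had 213 and 58.1 UMIs per 1000 S100a8 UMIs in photoreceptor-like cells and 0.716 and 0.0924 in neutrophil-like cells. Zbp1, Gbp2, Ifitm2 and Ifitm3 were not set against S100a8.

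After thinning, at least 1 type I-like UMI was found in 59.2% (55.7 to 62.7%) of photoreceptor-like cells in NRS and 48.5% (41.8 to 55.2%) in aCXCR2, and the 10% of cells with the most held 49.6% and 61.8% of these UMIs. At least 5 of 1000 UMIs were type I-like in 96 of 792 NRS cells, 12.1% (9.93 to 14.6%), and in 24 of 227 aCXCR2 cells, 10.6% (6.89 to 15.3%). The threshold of 5 was set after the values were seen and cuts a continuous range: 31, 21 and 20 NRS cells and 4, 2 and 7 aCXCR2 cells had 4, 5 and 6. The members that make up the sum are high in these cells by construction. The gamma-like members did not enter the threshold and were higher there too. In NRS their mean was 2.76 UMIs per 1000, against 0.14 in the cells with no type I-like UMI. In aCXCR2 it was 3.54 against 0.19. Cells with 1 or 2 type I-like UMIs lay between, at 0.37 in NRS and 0.38 in aCXCR2, as did NRS cells with 3 or 4, at 1.13. Gbp7 was 479 against 33.05 CPM in cells above and below the threshold in NRS and 750.0 against 24.6 CPM in aCXCR2. Tap1 was 542 against 70.4 CPM and 708 against 64.04 CPM, and Irgm1 was 344 against 71.8 CPM and 417 against 98.5 CPM.

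MHC class I genes, which interferons are known to raise and which are not members, showed the same split. H2-K1 was 1469 against 336 CPM in NRS (intervals 1236 to 1732 and 295 to 382) and 2375 against 433 CPM in aCXCR2. H2-D1 was 2510.4 against 806 CPM and 3458 against 660.1 CPM, and B2m, their light chain, was 417 against 157 CPM and 708 against 103 CPM. Of the gamma-like members, Gbp2 was 41.7 against 2.87 CPM and 41.7 against 4.93 CPM, and Cxcl9 had 0 UMIs in each of the 4 sets of cells. The rod gene Sag and the neutrophil gene S100a8 were level or lower in the cells above the threshold. Sag was 13938 against 13365 CPM in NRS and 7167 against 8094 CPM in aCXCR2, and S100a8 was 750.0 against 925 CPM and 333 against 2315 CPM, the 333 CPM resting on 8 UMIs. Median depth was 5094.5 against 4771 UMIs in NRS and 4949 against 5611 in aCXCR2. Over thinned cells, the correlation of type I-like with gamma-like UMIs was 0.72 and 0.67 in photoreceptor-like, 0.39 and 0.44 in neutrophil-like and 0.20 and 0.21 in macrophage-like cells of NRS and aCXCR2. The cells of each set share a library, so these values are descriptions.

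**Figure D4:**
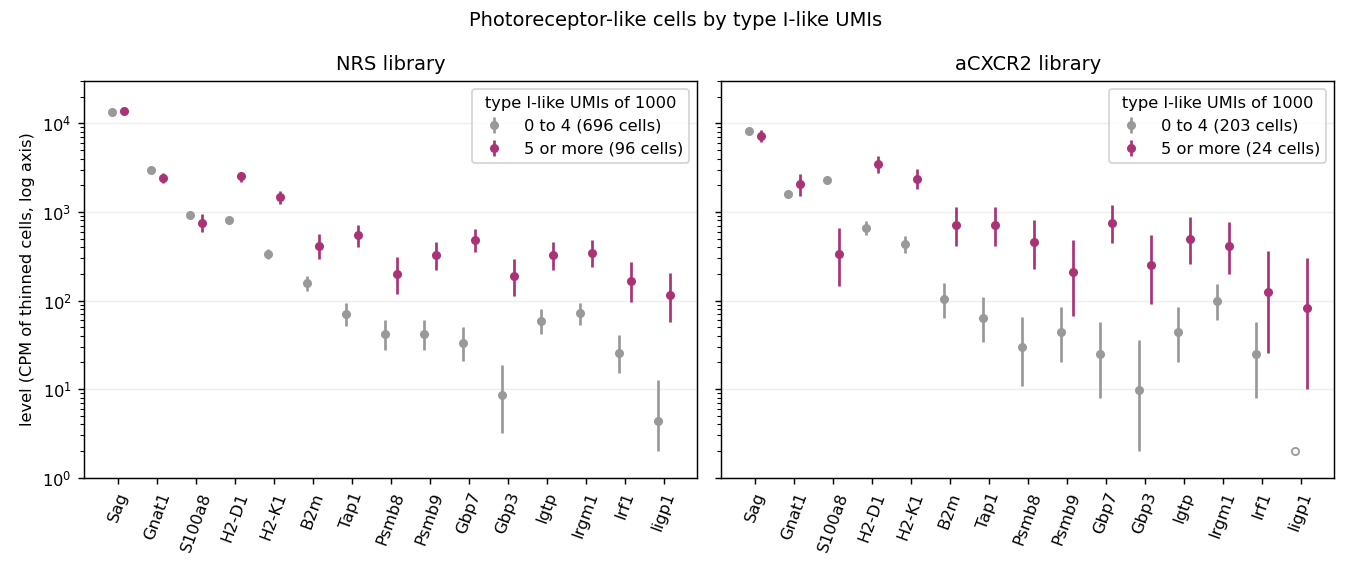
Level of 15 genes in photoreceptor-like cells with 0 to 4 and with 5 or more type I-like UMIs of 1000, in CPM on a log axis, by library, with bars for the 95% Poisson interval and an open point, drawn at 2 CPM, where there were 0 UMIs. Gbp7, Tap1, H2-K1, H2-D1 and B2m lie higher in the cells with 5 or more in both libraries, whereas Sag lies within 7167 to 13938 CPM in all 4 sets.

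Lens-like cells (cluster 14, marked by crystallin genes, 147 NRS and 12 aCXCR2 cells) stood apart for Cxcl10, which was 333 CPM in NRS (interval 290.2 to 379). The class held 11.0% of the Cxcl10 UMIs of NRS with 2.60% of its cells. These were 222 UMIs, and the number of lens-like cells that held them was not counted. Its type I-like and gamma-like sums were 662 and 331 CPM in NRS.

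Transcripts of the interferons themselves were almost absent. Over all kept cells, Ifng, Ifna1, Ifna2, Ifna4, Ifna5, Ifna6, Ifna7, Ifna9, Ifna11, Ifna12, Ifna13, Ifna14, Ifna15, Ifna16, Ifne, Ifnz, Ifnl2 and Ifnl3 had 0 UMIs in both libraries, which allows a share of cells with a UMI of up to 0.0531% in NRS and 0.0622% in aCXCR2. Ifnb1 had 0 UMIs in NRS and 3 in aCXCR2, Ifnk had 1 and 5, and Ifnab had 0 and 1. Markers of T or NK cells, the usual source of interferon gamma, summed to 3.83 and 1.86 CPM in neutrophil-like and 29.8 and 4.74 CPM in macrophage-like cells. These classes were named for other markers, so low sums there say nothing on T or NK cells elsewhere. The cells had also been enriched for Ly6G, so whether the eyes held a source of interferon cannot be read from these counts. Under the stricter cell filter, 4 NRS and 5 aCXCR2 cells formed a cluster led by the T cell genes Cd3g and Trbc2, under the 20 cells needed for a name. In neutrophil-like cells Ifnar1 was 146 versus 126 CPM, Ifnar2 310.4 versus 217 CPM, Ifngr1 244 versus 308 CPM and Ifngr2 197 versus 235 CPM. Ifnlr1 and Il10rb, which form the lambda receptor, were 11.7 versus 15.3 CPM and 315 versus 265 CPM. In macrophage-like cells Ifnar1, Ifnar2, Ifngr1 and Ifngr2 were 73.5 versus 103 CPM, 193 versus 202 CPM, 199 versus 289 CPM and 136 versus 159 CPM. None of the receptors measured, 6 in neutrophil-like and 5 in macrophage-like cells, was 2-fold apart. Over all genes, as above, 1.95% were that much higher and 20.5% lower in neutrophil-like cells, and 3.32% and 2.31% in macrophage-like cells.

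Socs1, a feedback inhibitor of the receptor kinases, was 23.5 CPM (NRS) and 72.03 CPM (aCXCR2), a log2 ratio of 1.62 [1.43 to 1.81], in neutrophil-like cells. In macrophage-like cells it was 6.84 CPM (NRS) and 41.1 CPM (aCXCR2), a log2 ratio of 2.59 [2.26 to 2.93]. Socs3, a related inhibitor, was 653 versus 879 CPM in neutrophil-like and 71.4 versus 178 CPM in macrophage-like cells. Socs1 was 1 of 6 negative regulators higher in neutrophil-like cells, and Socs1 and Socs3 were the 2 of 6 in macrophage-like cells, beside 1.95% and 3.32% of all genes. Pias1 and Ptpn2 were 59.5 versus 40.2 CPM and 73.2 versus 50.2 CPM in neutrophil-like cells, and Trim30a was 107 versus 153 CPM. In macrophage-like cells Ptpn2 was 23.2 versus 33.9 CPM and Pias1 38.4 versus 50.5 CPM.

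Of a list of nucleic acid sensors and adaptors that induce type I interferon, which leaves out the member Zbp1, none of 10 genes measured in neutrophil-like cells was 2-fold apart, beside 1.95% of all genes higher and 20.5% lower. None of 14 was in macrophage-like cells, beside 3.32% and 2.31%. In neutrophil-like cells the DNA-binding Ifi204 was 44.9 versus 89.2 CPM, the inflammasome sensor Aim2 72.6 versus 37.1 CPM, the kinase Eif2ak2 18.6 versus 29.6 CPM and Irf5 37.8 versus 24.6 CPM. In macrophage-like cells the adaptor Tmem173 (STING) was 24.3 versus 47.04 CPM, the RNA sensor Tlr7 42.4 versus 24.8 CPM, Myd88 38.3 versus 65.3 CPM and Ifi204 82.7 versus 137 CPM. Of the other interferon-stimulated genes, 3 of 34 measured were at least 2-fold higher in neutrophil-like and 7 of 43 in macrophage-like cells, and 0 were lower in either. All genes gave 1.95% higher and 20.5% lower in neutrophil-like and 3.32% and 2.31% in macrophage-like cells. The 3 in neutrophil-like cells were Irgm2, Ccl5 at 3.08 versus 14.3 CPM and Nlrc5 at 8.74 versus 17.6 CPM, the last pair under 20 CPM in both libraries and named after their values were seen. Of those at 20 CPM or more with the largest ratios, Irgm2 was 18.8 versus 40.9 CPM, Samhd1, a phosphohydrolase of nucleotides, 323 versus 641 CPM, Parp9 27.3 versus 45.2 CPM and Herc6 15.2 versus 24.6 CPM. In macrophage-like cells the chemokine Ccl5 was 93.8 versus 733 CPM, the MHC class II activator Ciita 3.64 versus 20.01 CPM, Serpina3g 7.96 versus 21.4 CPM and Gbp9 7.96 versus 21.2 CPM.

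Genes outside the interferon lists whose UMIs moved most with the type I-like sum over single neutrophil-like cells were Plac8 (mean correlation of the 2 libraries 0.27), Fgl2, Cxcr2, Mxd1, 1600014C10Rik, Csf3r, Trim12a, Hdc, Lsp1 and H2-T23, ranked by Pearson correlation over thinned cells among 2101 genes. For the gamma-like sum they were Plac8, Tnfaip2, H2-T23, Fcgr4, Cxcr2, Csf3r, Nampt, Trim12a, Cd52 and Tnfrsf1a. For Plac8 the correlations with the type I-like sum were 0.35 in NRS and 0.18 in aCXCR2. Correlations this weak in sparse counts are given as descriptions.

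Some members share sequence or position with other genes, so their split is uncertain in 3′ counts. Ifit3 and Ifit3b matched over 95.3% of the shorter transcript, Oas1a and Oas1g over 96.3%, and Ifitm2 and Ifitm3 over 71.1%. Irf9, Igtp, Gbp4, Ifi47 and Ifitm2 overlap another annotated gene on the same strand.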

How the data were processed

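Single-cell RNA was measured in 2 libraries, NRS and aCXCR2, grouped by their source labels. The deposited matrices hold raw UMI counts, 1 value for each gene and barcode, per the file headers, which give software version 3.0.0. Cell Ranger, Seurat and the human build GRCh38 are named in the submitters' processing notes, whereas the feature tables list mouse genes. The authors' mouse build and read-level settings are not given in the sources used here. Of 31053 gene IDs, 30934 (99.62%) were in GENCODE M21, used here for overlaps.

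The 45 members and all gene lists were chosen with earlier results of these data known. The libraries hold 61386486 and 85748842 UMIs. A barcode was kept from 500 UMIs and 200 genes up, if mitochondrial UMIs made up 10% or less. The filter left out 22.7% and 13.1% of barcodes. Scrublet called 0 and 4 cells as doublets, so the doublet caller did not work and doublets remain. Cells were clustered jointly in scanpy 1.11.5 (2000 variable genes without the interferon lists, 30 components, 15 neighbours, leidenalg 0.10.2 at resolution 1). Kept out of the classes were 13 and 7 cells with at least 5% haemoglobin UMIs, a limit set after seeing the data. The scoring rule that turned fixed markers into names was set after seeing the data: a class needed a score of at least 0.25, a second class under 0.6 of it, and at least 3 detected markers.

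CPM is a gene's summed UMIs per 1000000 UMIs of that class and library. Intervals are exact Poisson for CPM, exact conditional for ratios and exact Clopper-Pearson for shares. A member was measured at 10 CPM in 1 library, with a floor of 3 counts. Members of at least 20 CPM in 1 library are named with both values, and of each other list the receptors, ligands and up to 4 genes with the largest ratio among those of at least 20 CPM. Some genes are not reported here. The counting code was tested on simulated data. Alternatives changed the filter, doublets, clustering, scaling (TMM, edgeR 4.0.16), weighting, thresholds and thinning. Code ran in Python 3.11.15 with scipy 1.17.1.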

Additional observations from a re-analysis of the deposited data

Results flagged for a closer look

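The summed type I-like level differed in opposite directions between the libraries in the 2 immune classes. The log2 ratio of the sum was 0.54 (interval 0.51 to 0.57) in neutrophil-like and -0.39 (-0.42 to -0.36) in macrophage-like cells. The macrophage-like sum leans on 1 gene, Bst2, which made up 6134 of its 14526 UMIs in NRS and 8002 of 25632 in aCXCR2. Of single members, Oas3 was 0.82 and -0.61, and Irf7 was 0.20 and -0.98. Others lay on the same side in both classes, such as Zbp1 at 2.21 and 0.85, Irf9 at 0.67 and 0.54, Ifit3 at -1.20 and -1.99 and Bst2 at -0.67 and -0.83. With 1 library per group the difference was not tested. The neutrophil-like ratio of the sum was smaller within each neutrophil-like cluster of at least 100 cells in both libraries, as given above. It was also smaller without the lowest-scoring cluster and with clusters weighted equally, as given below. With neutrophil-like clusters weighted equally Irf7 came to -0.26, on the same side as in macrophage-like cells.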

How the results depend on the processing

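No paired analysis was possible because each group has 1 library. Neutrophil-like sums kept their direction under every alternative tried. The type I-like log2 ratio (0.54) and the gamma-like one (1.07) became 0.36 and 0.91 with a stricter cell filter, 0.57 and 1.10 without the highest doublet scores, 0.78 and 1.34 at resolution 0.5, 0.45 and 1.01 with interferon genes in the clustering, 1.21 and 1.74 with TMM factors, 1.27 and 1.80 with median of ratios factors, and 0.73 and 1.25 on totals without S100a8 and S100a9. They became 0.14 and 0.86 without cluster 0, 0.19 and 0.25 with clusters weighted equally, 0.46 and 0.93 as means of per-cell CPM, and 0.79 and 1.33 with unnamed cluster 1. With libraries clustered separately the type I-like ratio was 0.50. For macrophage-like sums (-0.39 and 0.97) the same order gave -0.54 and 0.86 with the stricter filter, -0.34 and 1.08 with interferon genes in the clustering, -0.93 and 0.33 without cluster 12, -0.88 and 0.12 with equal weights, -0.54 and 0.93 as per-cell means, and -0.23 and 1.12 with unnamed clusters 7 and 10. At resolution 0.5 the gamma-like ratio was 1.09.

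The 15 members higher in neutrophil-like cells became 9 with the stricter filter, 28 with TMM, 29 with median of ratios, 7 without cluster 0 and 3 with equal weights. The 1 lower member became 0 with TMM, median of ratios, a minimum of 50 CPM or cluster 1 added. It became 2 without cluster 0, with equal weights or with no CPM minimum. Over all genes, 9.4% were higher and 2.56% lower with median of ratios. The shares with TMM and with a minimum of 50 CPM are given above. For the other settings the share over all genes was not computed. The share of neutrophil-like cells with at least 3 type I-like UMIs (10.7% and 19.6%) was 17.2% and 32.2% for at least 2, 5.53% and 7.29% for at least 5, 4.78% and 7.75% at 500 UMIs and 19.8% and 37.1% at 2000. The NRS share was 12.6% with the stricter filter, 8.22% at resolution 0.5, 14.8% without cluster 0 and 8.30% with cluster 1. With equal weights Cxcl10 was -0.79 in neutrophil-like and Iigp1 -0.78 in macrophage-like cells, and 15 of 67 single-gene ratios changed sign, as did 12 without the lowest-scoring cluster. The other settings changed 0 to 5 signs. The photoreceptor-like shares with at least 5 type I-like UMIs ran from 10.2% to 12.6% in NRS and from 9.57% to 11.8% in aCXCR2. Chosen after seeing the data were the settings with clusters 1, 7 and 10, with no CPM minimum, and those of the photoreceptor-like share. The cause of each change was not tested beyond what the setting itself removes. Depth limits the cells: an aCXCR2 set of 24 photoreceptor-like cells and clusters with under 40 cells in a library rest on few UMIs.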

Other observations

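Over all kept cells, without regard to class, the gamma-like sum was 648 versus 1555 CPM (NRS versus aCXCR2), and the type I-like sum 1133 and 1089 CPM. Cluster 17, a set of 17 NRS and 24 aCXCR2 cells led by MHC class II genes with Fscn1 and Ccr7, had gamma-like sums of 2438 and 3682 CPM. Cluster 16, a photoreceptor-like cluster marked by Pde6h and Gnat2, also held cells with type I-like transcripts: 7 of 33 thinned NRS cells (21.2%) had at least 5 type I-like UMIs. Cluster 11, which carries both rod and neutrophil transcripts, had 17 of 311 such cells in NRS (5.47%).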
